A study of Homo sapiens with 40 samples.

Results

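The enzymes and regulators that make fatty acids and build them into triglycerides were followed through 40 RNA sequencing libraries of HepaRG cells, a human liver cell line that differentiates into hepatocyte-like cells and primitive biliary cells. The 10 genes were chosen by name out of 56568 named genes: FASN, ACACA, ACACB, ACLY, ME1, THRSP, MLXIPL, GPAM, DGAT1 and DGAT2. Their levels are FPKM (fragments scaled to the length of the transcript and to the mapped fragments of the library), added up over all transcripts bearing the gene name. Differentiated cells were exposed from day 8 to day 14 of culture in a serum medium with DMSO, which all 8 groups shared, and each group held 5 libraries. A control group received the solvent alone. In 3 groups PCB 126, a polychlorinated biphenyl of the dioxin-like kind and an agonist of the aryl hydrocarbon receptor (AhR), was added to 100 pM, to 10 nM or to 1 µM. Glyphosate was added to 10 µg/L, to 1 mg/L or to 0.1 g/L in 3 further groups, and the last group received Roundup, a formulated glyphosate herbicide, at 10 µg/L. A single set of 5 control libraries served both the PCB 126 table and the glyphosate table. The cells are a single established line, and no label says that the 5 libraries of a group came from separate cultures, so p-values measure the spread between these libraries, which may be technical.

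De novo lipogenesis turns surplus carbohydrate into fatty acid in the cytosol of the hepatocyte, and its genes are switched on in the fed liver by insulin and glucose. ACLY cleaves citrate into acetyl-CoA, ACACA and ACACB carboxylate it to malonyl-CoA, and FASN joins malonyl units into palmitate with NADPH that ME1 helps to supply. GPAM then places a fatty acid on glycerol-3-phosphate at the mitochondrial surface, the entry step of glycerolipid synthesis, and DGAT1 and DGAT2 add the last acyl chain of the triglyceride. MLXIPL is the glucose-responsive transcription factor ChREBP, and THRSP (Spot 14) is a nuclear and cytosolic protein that promotes lipogenesis.

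Among these genes GPAM moved with PCB 126. Its promoter region is shown in 2 stretches because 2 of the 5 assembled GPAM transcripts began far apart on chromosome 10 (GRCh38, minus strand). The shorter one, ENST00000369425, has 19 exons and began at 112183710, beside the RefSeq start. The unnamed transcript MSTRG.5484.1, with 21 exons, began at 112215487, which is 31722 bases upstream of the RefSeq start. The named 4-exon transcripts ENST00000480130 and ENST00000498541 also began upstream, at 112215377 and 112214396. The remaining transcript, ENST00000348367 with 22 exons, began at 112183763, also beside the RefSeq start. It held at most 0.0027 FPKM in any library and had a mean of 0 at PCB 126 1 µM. The RefSeq window is chr10:112183716-112184015 and the window at the assembled start is chr10:112215438-112215737. Each spans 250 bases before and 50 bases after the start. Capitals mark GCGTG, the core that the AhR and its partner ARNT bind, where it was found on either strand (CACGC as printed).
GPAM RefSeq start: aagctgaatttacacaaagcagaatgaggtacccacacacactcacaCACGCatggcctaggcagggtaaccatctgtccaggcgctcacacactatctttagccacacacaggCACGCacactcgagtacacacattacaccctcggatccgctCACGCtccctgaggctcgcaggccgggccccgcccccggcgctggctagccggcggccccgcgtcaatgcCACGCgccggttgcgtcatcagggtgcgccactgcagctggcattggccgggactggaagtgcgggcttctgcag
GPAM assembled start: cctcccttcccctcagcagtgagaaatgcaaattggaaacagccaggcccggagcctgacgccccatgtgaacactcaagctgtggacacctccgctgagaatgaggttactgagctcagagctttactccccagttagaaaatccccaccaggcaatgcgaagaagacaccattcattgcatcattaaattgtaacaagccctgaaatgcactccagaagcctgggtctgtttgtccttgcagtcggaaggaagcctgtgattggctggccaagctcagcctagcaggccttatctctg

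The RefSeq window of GPAM held 4 matches, at -203, -136, -95 and -25 from the start, and the upstream window held 0. Of 35116 RefSeq promoter windows of the same length in the human genome, 36.5% held at least 1 GCGTG and 1.63% held 4 or more. The cut-off of 4 is the count of GPAM itself, and these windows were not matched to it for base content. Neither GPAM window held the longer form TNGCGTG, which contains the core and occurred in 5.51% of promoters. RefSeq promoter windows were matched for 7 of the 10 genes, with more than 1 window for ACACA, ACACB and ACLY. GCGTG was present in the windows of ACACA, ACLY and ME1, with 1 or 2 matches in each window, and the windows of ACACB, MLXIPL and THRSP held none. TNGCGTG occurred once in each of the ACACA windows chr17:37299718-37300017 and chr17:37406787-37407086, and in no other window of these genes. No window of these genes held the E-box CACGTG, found in 7.26% of promoters, or TCACNCCAC, a form of the sterol regulatory element found in 1.13%. These are matches of letters and not measured binding.

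In the control group the fatty acid enzymes FASN, ACLY and ACACA had the highest means of the 10. FASN (chr17:82078338-82098294) had 41.3 ± 14.7 FPKM (SD, n = 5), ACLY (chr17:41866917-41930542) 32.3 ± 9.80 and ACACA (chr17:37084992-37406836) 16.8 ± 11.9. The mitochondria-associated acetyl-CoA carboxylase ACACB (chr12:109116587-109268226) stood at 2.94 ± 1.33 FPKM, lower than its cytosolic counterpart. Of the acyltransferases of the last step, DGAT2 (chr11:75759512-75801535) had 14.3 ± 2.86 FPKM and DGAT1, on chromosome 8, had 7.41 ± 2.05. GPAM (chr10:112149865-112215377) had 1.19 ± 0.457 FPKM. The transcription factor MLXIPL (chr7:73593194-73624543) had 4.79 ± 2.22 FPKM. THRSP (chr11:78063861-78068351) was near the bottom of the scale, at 0.153 ± 0.165 FPKM. ME1 (chr6:83210402-83431051) was listed at 0 in every control library and in 36 of all 40 libraries, with at most 0.021 FPKM in the other 4. FPKM is scaled to transcript length, but the named sums leave out unequal parts of the genes, so the order between genes is only a rough one. The spread of the control libraries overlapped between FASN and ACLY and between ACACA and DGAT2.

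Part of several genes was assembled under no gene name, so the named sum leaves out part of them. Over all 40 libraries the unnamed transcripts of the same assembled locus held 78.5% of GPAM, 70.1% of ACACB, 61.3% of MLXIPL, 38.2% of ACACA, 33.6% of FASN, 12.4% of DGAT1 and 5.12% of ACLY. DGAT2, THRSP and ME1 had none. With the unnamed transcripts added, the control group stood at 57.7 ± 15.5 FPKM for FASN, 24.8 ± 9.98 for ACACA, 14.1 ± 3.56 for MLXIPL, 9.83 ± 3.45 for ACACB and 7.65 ± 2.22 for GPAM (SD, n = 5), and the control libraries of ACACA and ACACB then overlapped. The locus of ACACB also takes in UNG, and the 3′ ends of THRSP and DGAT1 overlap NDUFC2 and HSF1, so reads of these genes may be shared. The most abundant transcript was a named one for FASN (ENST00000306749, 31.4 FPKM over the 40 libraries), ACLY (ENST00000352035, 13.7), DGAT2 (ENST00000228027, 13.0), ACACA (ENST00000613776, 5.57), DGAT1 (ENST00000528718, 5.18), MLXIPL (ENST00000313375, 2.67), THRSP (ENST00000281030, 0.159) and ME1 (ENST00000369705). It was an unnamed one for GPAM (MSTRG.5484.1, 8.02) and ACACB (MSTRG.9676.8, 2.48).

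**Figure D1:**
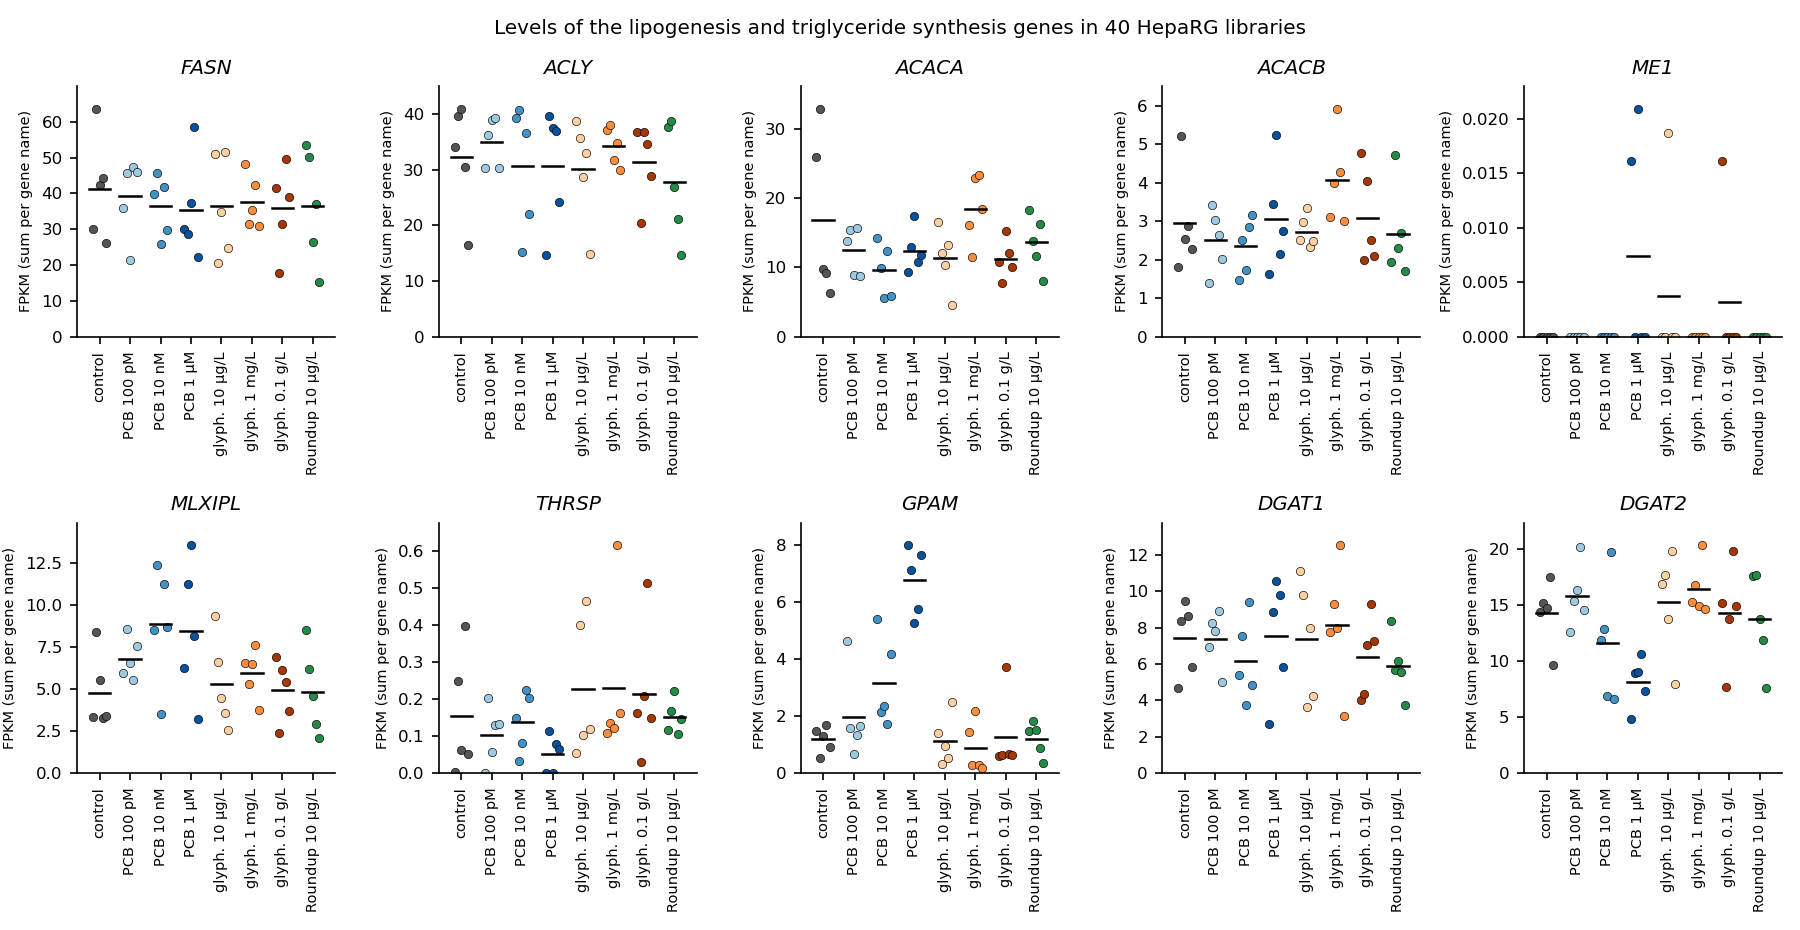
FPKM summed per gene name for the 10 genes (vertical axis, own scale for each gene) in the 5 libraries of each of the 8 groups (horizontal axis), with 1 point a library and a bar at the group mean. GPAM lay between 5.29 and 8.00 at PCB 126 1 µM and between 0.539 and 1.68 in the control group, whereas the herbicide groups of every gene overlapped the control group.

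Hepatocyte markers were abundant, and of the biliary markers KRT19 made up nearly all. The summed FPKM of 7 hepatocyte genes lay between 13454 and 19728 in the control libraries, that of 5 biliary genes between 195 and 402, and that of 3 adipocyte genes did not exceed 0.468 in any library, with ADIPOQ at 0 in all control libraries. The control medians of the biliary genes were 309 FPKM for KRT19, 8.08 for SOX9, 0.737 for KRT7, 0.364 for CFTR and 0 for EPCAM. The receptor targets CYP1A1, CYP1A2, CYP1B1 and TIPARP were raised at 10 nM and 1 µM PCB 126 (limma, Benjamini-Hochberg, CYP1A1 by 6.61 on the log2 scale at 1 µM, adjusted p = 7.4e-05), whereas at 100 pM none of these passed and AHRR passed at no concentration. 9 libraries stood apart from the rest on the first principal component, which held 41.4% of the variance. In the PCB 126 table these were control 5, 10 nM 3 and 5, and 1 µM 1 and 5, and the others were Roundup 4 and 5, glyphosate 0.1 g/L 2 and glyphosate 10 µg/L 5. Their FPKM summed over named genes lay between 186215 and 253442, against 263117 to 450655 in the other libraries. The tables hold no read counts, so the precision of each value rests on the 5 libraries of a group.

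The comparison of the PCB 126 concentrations with the solvent control asked which of these genes respond to the receptor agonist across its range. Genes whose FPKM varied by more than 1 (variance) in the table were tested with limma on log2(FPKM + 1), on which fold changes of low genes are understated, and a call is an adjusted p under 0.05 over all genes tested. Of the 10 genes, 8 passed this filter in the PCB 126 table and ME1 and THRSP did not. GPAM passed it in the PCB 126 table, where the exposed libraries count towards the variance (6.16), and not in the glyphosate table (0.685). Its presence among the tested genes is therefore no separate sign of a change.

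GPAM rose with the concentration of PCB 126. The control libraries held 1.48, 0.539, 1.31, 1.68 and 0.924 FPKM, and the libraries at 100 pM held 4.64, 1.58, 0.688, 1.35 and 1.65. At 10 nM they held 5.41, 2.15, 2.34, 1.71 and 4.17, and at 1 µM 8.00, 7.14, 5.29, 5.75 and 7.65. All 5 libraries at 1 µM lay above all 5 control libraries, while 100 pM overlapped the control group. At 10 nM the lowest library held 1.71 FPKM, beside 1.68 in the highest control library, and the highest overlapped the lowest at 1 µM. Such a separation of 1 µM from control was seen for 2.35% of the genes tested and, among these 8 genes, for GPAM only. The mean of the named sum rose from 1.19 to 6.77 FPKM, a ratio of 5.70. With the unnamed transcript added, the mean rose from 7.65 to 20.7 FPKM, a smaller ratio of 2.70. Of that larger sum, the short transcripts ENST00000480130 and ENST00000498541 held 9.15% and 6.68% over the 40 libraries, and ENST00000369425 held 5.67%.

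On the log2(FPKM + 1) scale GPAM was higher than control by 0.35 at 100 pM (SE 0.29, adjusted p = 1.0), 0.88 at 10 nM (SE 0.29, limma, unadjusted p = 0.0062, adjusted p = 0.50) and 1.84 at 1 µM (SE 0.29, adjusted p = 0.00055). It rose by 0.61 per dose step (SE 0.093, adjusted p = 0.00026) when the control and the 3 concentrations were taken as steps 0 to 3, and it differed across the 4 groups (F-test, adjusted p = 0.0030). With the filter on variance removed it was still called at 1 µM (adjusted p = 0.0064). Without the 5 libraries that stood apart, the rise at 1 µM was 1.67 (SE 0.37, adjusted p = 0.015) and the F-test no longer passed (adjusted p = 0.069).

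GPAM was the single call among the 8 tested genes at 1 µM, where 1.87% of all genes tested were called, in the F-test, where 1.39% were called, and in the trend over dose steps, where 3.7% were called. At 10 nM no tested member was called by limma, with an unadjusted p under 0.05 for GPAM and MLXIPL, against 0.205% of all genes called. At 100 pM 0 of 8 were called and 0 had an unadjusted p under 0.05, beside 0% of all genes called and 116 genes with an unadjusted p under 0.05.

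Most of the GPAM signal lay in the transcript without a gene name. With it included, the control libraries held 8.59, 7.97, 9.77, 8.04 and 3.89 FPKM, those at 10 nM 20.3, 13.9, 6.23, 10.97 and 16.2, and those at 1 µM 9.86, 27.3, 23.6, 24.3 and 18.3. The libraries at 1 µM still lay above the control libraries, the lowest of them by less than 0.1 FPKM, and 10 nM overlapped the control group. Summed over the assembled locus, GPAM rose by 1.30 at 1 µM (SE 0.28, limma, adjusted p = 0.0017) and by 0.44 per step (SE 0.090, adjusted p = 0.00053), and the difference at 10 nM was 0.70 (SE 0.28, adjusted p = 0.68). The locus sum again called GPAM alone of these genes at 1 µM and in the F-test, beside 3.95% and 3.21% of all loci, and GPAM and DGAT2 in the trend, beside 6.76%.

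The transcripts of GPAM did not move evenly. ENST00000369425, which starts beside the RefSeq window printed above, held 0.257, 0.195, 0.107, 0.0479 and 0.0516 FPKM in the control libraries and 3.58, 2.99, 3.32, 2.22 and 0.984 at 1 µM. The means were 0.131 ± 0.0917 and 2.62 ± 1.05 FPKM (SD, n = 5). It rose by 1.62 on the log2(FPKM + 1) scale (SE 0.31, limma over transcripts, adjusted p = 0.016), by 0.49 per step (SE 0.097, adjusted p = 0.014) and across the 4 groups (F-test, adjusted p = 0.049). Of 32 tested transcripts of these genes it was the 1 that passed in each of these tests, beside 0.552%, 0.906% and 0.364% of all transcripts. It passed the filter on variance only with its values at 1 µM included (1.37, against 0.198 without them), so a place among the 32 is no separate sign of a change. With that filter removed, a fit chosen after seeing the data, it was the 1 of 107 transcripts called at 1 µM (adjusted p = 0.023) and in the trend (adjusted p = 0.020), beside 0.0581% and 0.116% of all transcripts, and the F-test no longer passed (adjusted p = 0.078, with 0.0321% of all transcripts called).

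The long transcript MSTRG.5484.1 held 7.11, 7.43, 8.46, 6.35 and 2.97 FPKM in the control libraries and 1.86, 20.1, 18.3, 18.6 and 10.6 at 1 µM. Here 4 of the 5 libraries at 1 µM exceeded every control library and the other lay below them all, and that library was one of those that stood apart. The difference was 0.76 (SE 0.46, limma, adjusted p = 0.62). The short transcript ENST00000480130, which also began upstream, was 1.05 higher at 1 µM (SE 0.38, limma, adjusted p = 0.35). When each gene was represented by its most abundant named transcript instead of its sum, that short transcript stood for GPAM, and the call at 1 µM was lost (adjusted p = 0.20). The programme that assembled the transcripts also divided the fragments among them, and how far that division set the unequal rise was not tested.

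**Figure D2:**
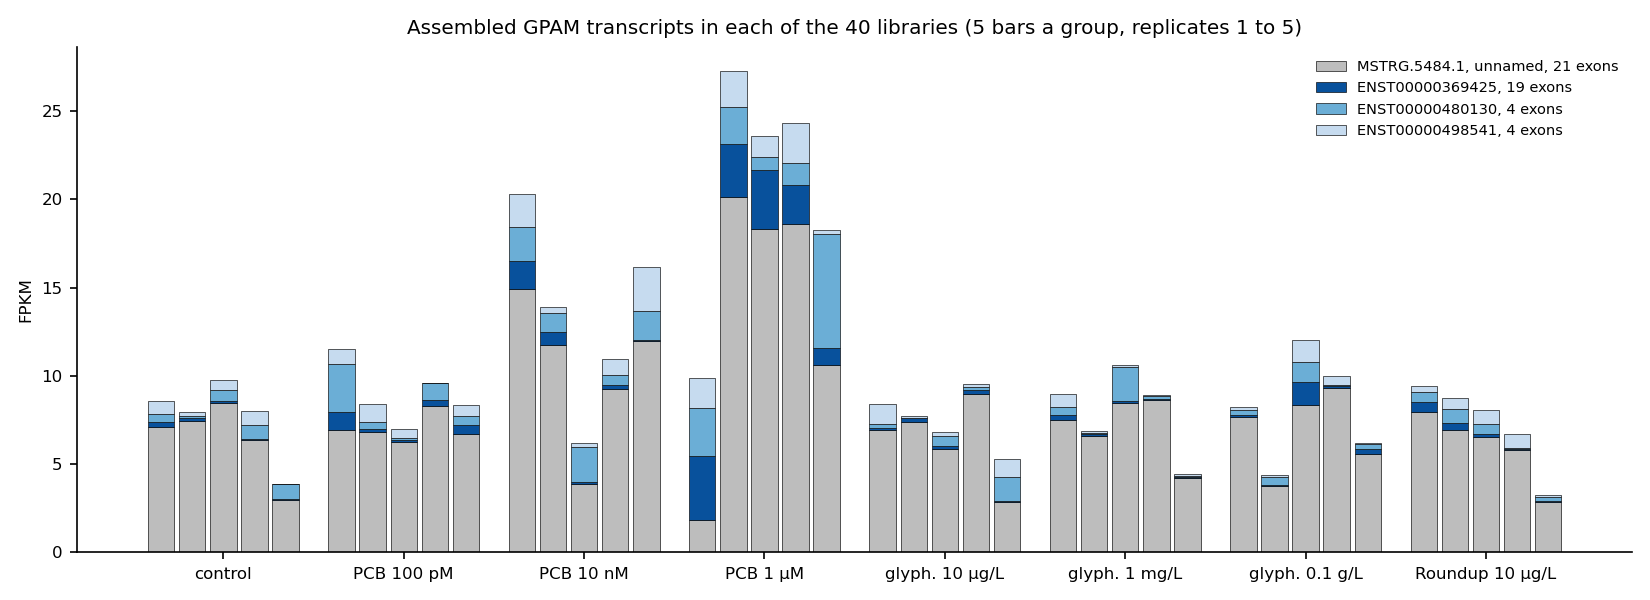
FPKM (vertical axis) of the assembled GPAM transcripts except ENST00000348367, stacked, in each of the 40 libraries. Each group has 5 bars in the order of replicates 1 to 5. The unnamed 21-exon transcript makes up most of the bar in nearly all libraries, and ENST00000369425 reaches 0.984 to 3.58 FPKM at PCB 126 1 µM against 0.0479 to 0.257 in the control group; the lowest bar at 1 µM, in library 1, holds 1.86 FPKM of the unnamed transcript.

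DGAT2, the acyltransferase that favours newly made fatty acid in liver cells, was lower at 1 µM PCB 126, and whether the difference was called turned on the scaling. The control libraries held 14.4, 15.2, 14.7, 17.5 and 9.66 FPKM and the libraries at 100 pM 12.6, 15.4, 16.4, 20.2 and 14.6. At 10 nM they held 11.9, 12.9, 6.89, 19.8 and 6.63, and at 1 µM 4.87, 8.96, 9.01, 10.6 and 7.31. All libraries at 1 µM lay below 4 of the 5 control libraries and overlapped the group only through control 5, which was one of the libraries that stood apart. The mean at 1 µM was 8.16 ± 2.18 FPKM against 14.3 ± 2.86, a ratio of 0.571.

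DGAT2 was 0.75 lower on the log2(FPKM + 1) scale at 1 µM (log2 fold change -0.75, SE 0.27, limma, unadjusted p = 0.010, adjusted p = 0.19), and its slope was -0.28 per dose step (SE 0.086, adjusted p = 0.077). The median of all genes tested was itself -0.26 at 1 µM and moved to -0.12 after scaling to the 75th percentile of each library and to -0.01 after quantile normalization. Of the calls at 1 µM, 63 of 182 were higher as reported and 532 of 1085 after quantile normalization. DGAT2 was called at 1 µM with the percentile scaling (-0.61, adjusted p = 0.048), with quantile normalization (-0.54, adjusted p = 0.013) and without the libraries that stood apart (-0.64, adjusted p = 0.048). Its slope was called with the replicate block (adjusted p = 0.021), with the locus sum (adjusted p = 0.036) and with all 40 libraries in one fit (adjusted p = 0.044). Its direction was the same in each of these fits.

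Markers of the hepatocyte were in part lower at 1 µM as well. The summed FPKM of the 7 hepatocyte genes, most of it ALB and SERPINA1, lay between 5478 and 13580 at 1 µM (median 9188) against a control median of 18867, and none of the 7 was at 0. Of the 7, 1 was called at 1 µM, beside 1.87% of all genes (TTR fell by 1.62 on the log2 scale, limma, adjusted p = 0.0080), and 3 fell in the trend, beside 3.7%. ALB (2922 to 8721 FPKM against 9144 to 12989), TTR (61.0 to 172 against 251 to 436) and TF lay below every control library. For TF the margin was narrow (120 to 308.1 against 308.7 to 589). Groups separated in this way for 2.35% of all genes tested. SERPINA1, APOA1 and APOB overlapped the control group. HNF4A, the transcription factor of hepatocyte identity, differed by 0.41 in the other direction (limma, adjusted p = 0.53). The biliary sum went from 195 to 402 FPKM in the control group to between 103 and 200 at 1 µM, with neither of its 2 tested genes called and EPCAM at 0 in all libraries at 1 µM. The mesenchymal sum went from between 9.44 and 21.6 to between 2.42 and 7.60, and 1 of its 3 tested genes was called (COL3A1 fell by 3.07, adjusted p = 2.3e-05), whereas COL1A1 had a median of 4.73 FPKM against 1.81 in the control group (adjusted p = 0.38). The part of these markers in the results for DGAT2 and GPAM was not tested, and in bulk RNA fewer cells of a type and less RNA per cell cannot be told apart. The 3 adipocyte markers summed to at most 0.230 FPKM at 1 µM, with ADIPOQ and LEP at 0 there.

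MLXIPL (ChREBP) had higher means in all PCB 126 groups, and its spread was wide. The control libraries held 3.33, 8.38, 5.55, 3.30 and 3.39 FPKM, those at 100 pM 5.93, 8.55, 6.55, 5.53 and 7.54, those at 10 nM 8.50, 12.4, 3.54, 11.3 and 8.72, and those at 1 µM 6.26, 11.2, 13.6, 8.15 and 3.23. Each PCB 126 group overlapped the control group, in which library 2 held more than the lowest library of every concentration. The differences were 0.49, 0.75 and 0.66 on the log2(FPKM + 1) scale at 100 pM, 10 nM and 1 µM (SE 0.33 in each, limma, adjusted p = 1.0, 0.86 and 0.38), and the slope was 0.23 per step (SE 0.10, adjusted p = 0.24). The lowest libraries at 10 nM and 1 µM, replicates 3 and 5, were among those that stood apart. Without the libraries that stood apart, MLXIPL was 1.02 higher at 1 µM (SE 0.26, adjusted p = 0.035), and with quantile normalization 0.91 higher (SE 0.24, adjusted p = 0.020). With percentile scaling it was called in the trend (0.27 per step, adjusted p = 0.045) and not at 1 µM (0.80, adjusted p = 0.079).

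Under these alternatives the tested genes that were called at 1 µM were GPAM and DGAT2 with percentile scaling, and GPAM, DGAT2 and MLXIPL with quantile normalization and without the libraries that stood apart. The background was higher too, with 6.07%, 11.1% and 6.34% of all genes called. In the trend the 3 genes were called in all 3 fits, beside 9.29%, 12.9% and 6.87% of all genes. The direction of each of the 3 was as reported in every one of them.

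**Figure D3:**
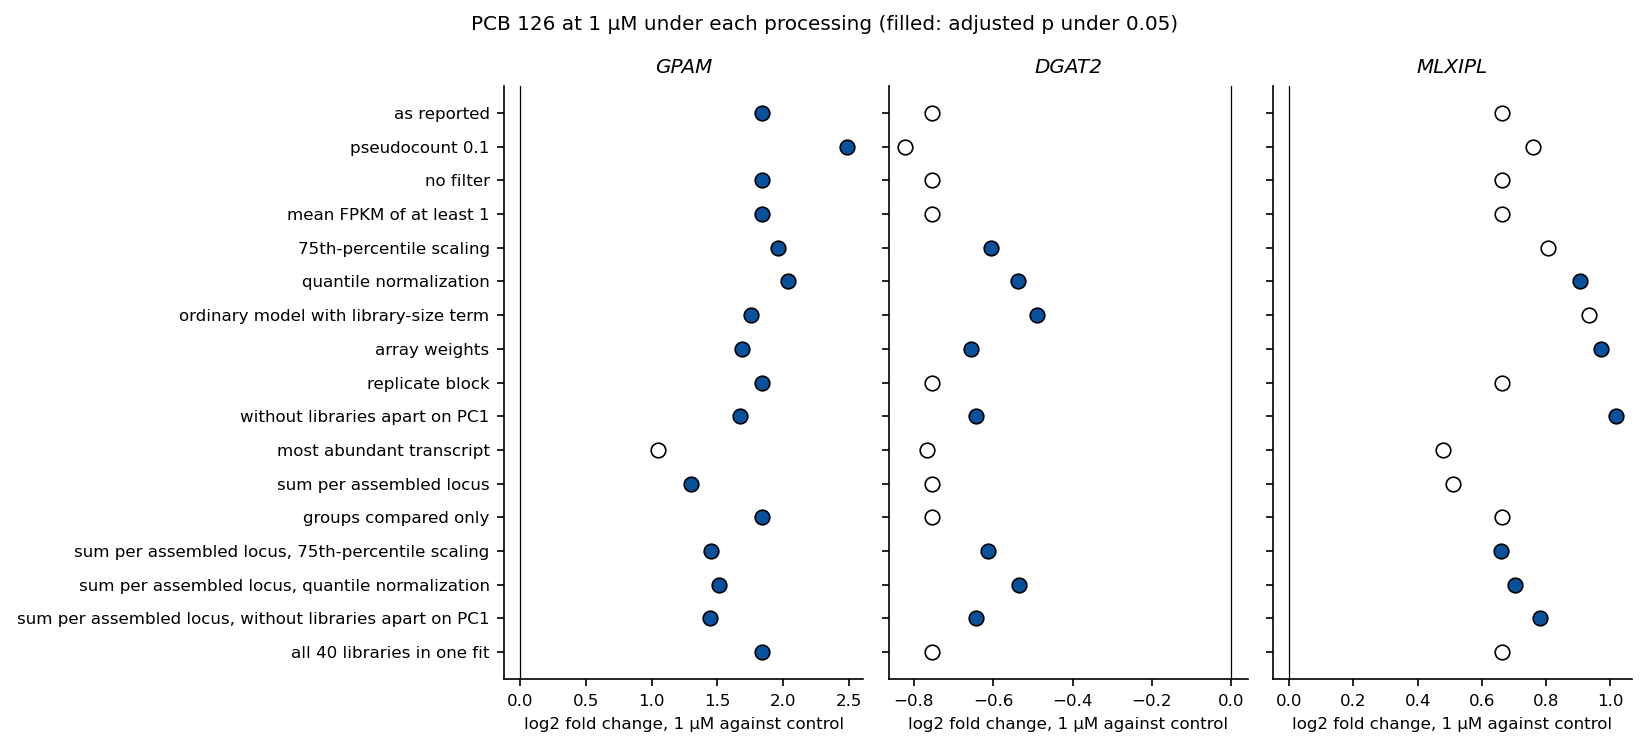
Log2 fold change at PCB 126 1 µM against control (horizontal axes, own scale for each gene) of GPAM, DGAT2 and MLXIPL under each way of processing the tables (vertical axis), filled where the adjusted p was under 0.05. GPAM lay between 1.05 and 2.49 and was open only for the most abundant transcript; DGAT2 lay below 0 and MLXIPL above 0 throughout, open as reported and filled in part of the alternatives.

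The enzymes of palmitate synthesis showed no called difference at any PCB 126 concentration. FASN had 35.3 ± 14.0 FPKM at 1 µM (SD, n = 5), with libraries from 22.2 to 58.5 against 26.2 to 63.6 in the control group, and a log2 fold change of -0.23 (SE 0.29, limma, adjusted p = 0.71). ACLY had 30.6 ± 10.8 FPKM, from 14.7 to 39.7 against 16.5 to 41.0, and differed by -0.10 (SE 0.31, adjusted p = 0.89). For both genes the libraries at 1 µM ranged over much the same span as the controls.

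ACACA had 12.5 ± 3.07 FPKM at 1 µM and 9.58 ± 3.84 at 10 nM against 16.8 ± 11.9, in which 2 control libraries reached 26.0 and 32.9 and the other 3 lay between 6.26 and 9.73. It differed by -0.17 at 1 µM (SE 0.36, adjusted p = 0.83) and by -0.57 at 10 nM (SE 0.36, adjusted p = 0.86). ACACB had 3.04 ± 1.41 FPKM at 1 µM and differed by 0.03 (SE 0.27, adjusted p = 0.97). Both carboxylases overlapped the control group at every concentration.

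DGAT1, whose enzyme shares the last step with DGAT2 and works mainly on fatty acid taken up from outside, had 7.55 ± 3.25 FPKM at 1 µM, with libraries from 2.70 to 10.6 against 4.66 to 9.47. It differed by -0.05 (SE 0.30, limma, adjusted p = 0.95), with no group apart from the control. THRSP had 0.0512 ± 0.0498 FPKM at 1 µM, with 2 libraries at 0 and the others up to 0.113, against 0.00351 to 0.397 in the control group. That difference had p = 0.286 in a 2-sided exact permutation test, the smallest of the 21 such tests run for THRSP, ME1 and, in the herbicide comparisons, GPAM, and the smallest p that groups of 5 allow is 0.00794. ME1 was above 0 in 2 of the 5 libraries at 1 µM and in none of the other PCB 126 groups.

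**Figure D4:**
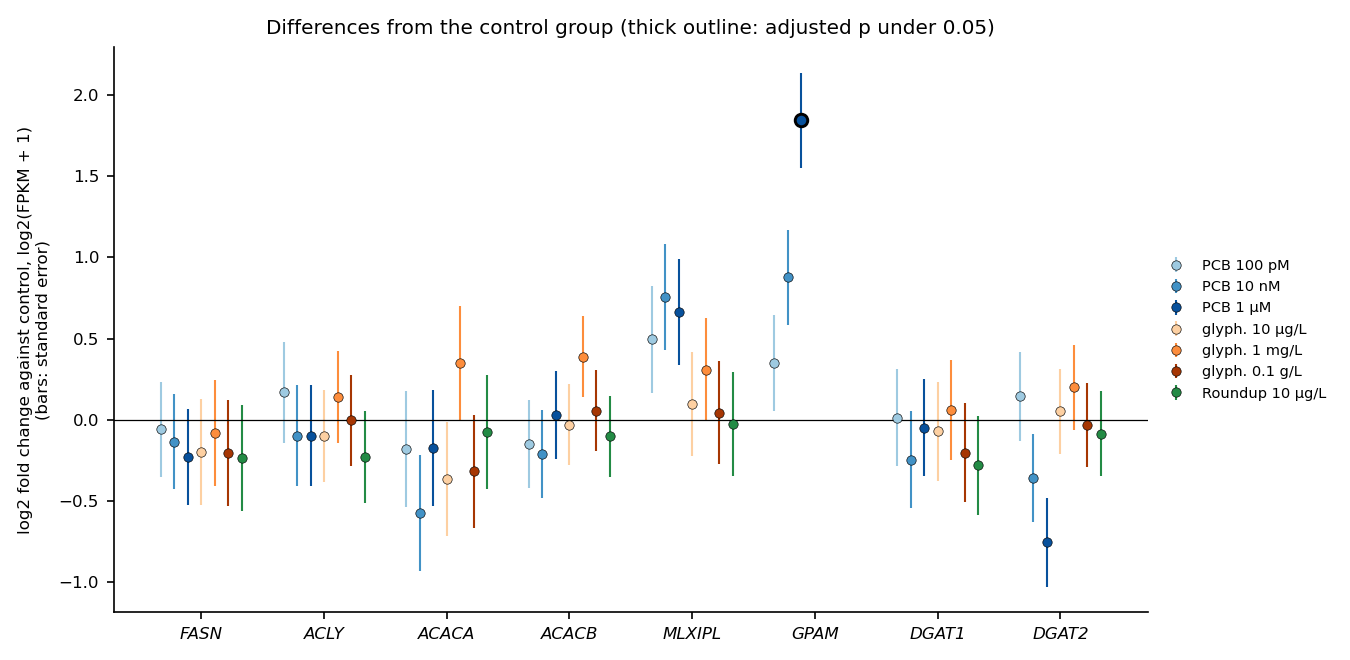
Log2 fold change against the shared control group on the log2(FPKM + 1) scale (vertical axis) with its standard error (bars) for the genes tested (horizontal axis), in each of the 7 exposed groups, with a thick outline where the adjusted p was under 0.05. GPAM at PCB 126 1 µM, at 1.84, is the only outlined point, and GPAM has no herbicide values because it did not pass the filter in that table.

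The herbicide comparisons asked whether glyphosate, or Roundup at the dose of the lowest glyphosate group, moves the same genes. 7 of the 10 genes were tested by limma and 0 were called in any comparison, with 0 at an unadjusted p under 0.05 in each. Of all genes tested 0% were called at glyphosate 10 µg/L, 0% at 1 mg/L, 0% at 0.1 g/L, 0% for Roundup against control, 0% for Roundup against glyphosate at 10 µg/L, 0% in the F-test and 0% in the glyphosate trend. Unadjusted p-values under 0.05 numbered 95, 125, 84, 165, 121, 130 and 97 genes in that order. The 35 log2 fold changes of the 7 genes lay between -0.37 (ACACA at glyphosate 10 µg/L) and 0.39 (ACACB at 1 mg/L), with standard errors up to 0.35 and a smallest adjusted p of 0.90.

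GPAM had similar means in the herbicide groups and the control group, with wide spreads. It had 1.14 ± 0.858, 0.877 ± 0.886 and 1.25 ± 1.38 FPKM in the glyphosate groups from the lowest to the highest dose and 1.21 ± 0.594 with Roundup (SD, n = 5), against 1.19 ± 0.457. At 0.1 g/L library 3 held 3.73 FPKM and the other 4 held 0.598 to 0.683, and at 1 mg/L the median was 0.299 FPKM against a control median of 1.31. All herbicide groups overlapped the control group, and the exact permutation p-values against it lay between 0.341 and 0.984.

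DGAT2 had 15.2 ± 4.63, 16.4 ± 2.36, 14.3 ± 4.35 and 13.7 ± 4.24 FPKM in the 3 glyphosate groups and with Roundup, and MLXIPL had 5.32 ± 2.70, 5.95 ± 1.46, 4.93 ± 1.84 and 4.86 ± 2.58. Every one of these groups overlapped the control group. FASN ranged between 35.9 and 37.7 FPKM in its herbicide group means and ACLY between 27.8 and 34.3. ACACA had its highest group mean of the series at glyphosate 1 mg/L, 18.5 ± 4.92 FPKM, where ACACB was also highest at 4.06 ± 1.17, and both overlapped the control group. At 1 mg/L the median of all genes was 0.14 above control and that of the 7 genes 0.20.

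Taken by its group means over the 8 groups, GPAM ran from PCB 126 1 µM (6.77 FPKM) through 10 nM (3.16) and 100 pM (1.98) to glyphosate 0.1 g/L (1.25), Roundup (1.21), control (1.19), glyphosate 10 µg/L (1.14) and glyphosate 1 mg/L (0.877). Neighbours in this order overlapped throughout. DGAT2 ran from glyphosate 1 mg/L (16.4) and PCB 126 100 pM (15.8) down to PCB 126 10 nM (11.6) and 1 µM (8.16), and MLXIPL from PCB 126 10 nM (8.88) and 1 µM (8.49) down to the control (4.79). The orders of GPAM and MLXIPL are those of the named sum, which leaves out 78.5% and 61.3% of them. With the unnamed transcripts added, MLXIPL was highest at PCB 126 1 µM and its control was no longer the lowest. GPAM at glyphosate 1 mg/L then lay above its control. For FASN the control mean of 41.3 FPKM was the highest and the mean at PCB 126 1 µM the lowest in the named sum, whereas with the unnamed transcripts 100 pM was highest (61.4 FPKM, against 57.7 in the control group) and Roundup lowest (52.5).

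Other genes of the pathway were counted as a list of 40, of which 32 were tested in each table. It covers acetyl-CoA and NADPH supply, elongation and desaturation, the other enzymes of glycerolipid assembly, triglyceride export and regulators such as SREBF1. None of the 32 was called by limma in any of the 12 comparisons, and 1 had an unadjusted p under 0.05 at PCB 126 1 µM, 1 in the PCB 126 trend, 1 in the PCB 126 F-test and 0 in the other 9. Over all 9755 genes tested, 1322, 1819 and 933 had such a p in the 1 µM comparison, the trend and the F-test. The median log2 fold change of the list at 1 µM was -0.17, against -0.26 over all genes tested and -0.07 for the 8 genes above.

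The smallest p-values of the list at 1 µM belonged to the enzymes that modify palmitate, the desaturase SCD (log2 fold change -0.84, SE 0.35, adjusted p = 0.27) and the elongase ELOVL6 (-0.65, SE 0.35, adjusted p = 0.42), which also led in the trend (-0.29 and -0.23 per step, adjusted p = 0.15 and 0.28). At 10 nM they belonged to MLX, the partner with which MLXIPL binds DNA (-0.75), and to the acyltransferase AGPAT5 (-0.65), both with adjusted p = 0.86. At 100 pM INSIG1, which holds back the sterol-sensing activators, differed by -0.85 (adjusted p = 1.0). In the PCB 126 F-test they were MID1IP1, a relative of THRSP (adjusted p = 0.36), and SCD (adjusted p = 0.53). With transcripts summed per assembled locus, 1 of the 32, the phosphatidate phosphatase LPIN2, fell in the trend (-0.31 per step, SE 0.083, adjusted p = 0.013), beside 6.76% of all loci called.

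In the herbicide comparisons no gene of the list had an unadjusted p under 0.05. The genes with the smallest were ACSS2 (-0.38) and NR1H3 (0.24) at glyphosate 10 µg/L, AGPAT2 (0.65) and INSIG1 (-0.48) at 1 mg/L, and INSIG1 (-0.59) and AGPAT3 (-0.39) at 0.1 g/L. With Roundup they were MLX (-0.46) and ACSS2 (-0.34) against control and AGPAT2 (-0.57) and MLX (-0.36) against glyphosate at the same dose, and MLX and AGPAT2 also led the F-test. In the glyphosate trend they were INSIG1 (-0.20 per step) and LPIN1 (-0.08 per step).

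The genes whose levels ran most like those of the 10 differed between them. Over the 40 libraries (Pearson's r of log2 values, 9259 or 9260 candidate genes), GPAM ran closest to SLC37A2 (r = 0.823) and SCG5 (r = 0.820). DGAT2 ran closest to SERPINC1, the antithrombin gene of hepatocytes (r = 0.949). ACLY ran closest to SEC61A1 (r = 0.927) and IGSF3 (r = 0.926), and MLXIPL to PRKCA (r = 0.765) and LLGL2 (r = 0.760).

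For other genes the highest r was lower. It was 0.644 for ACACA (PI4KA), 0.604 for FASN (SDF2), 0.611 for DGAT1 (LINC02228) and 0.628 for THRSP (CYP4A11), and ME1 had too few values above 0 for its 0.640 (AC006254.1) to be read. These are descriptions over libraries that share their groups and include the 9 that stood apart.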

How the data were processed

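The transcriptome of 40 HepaRG libraries (8 groups of 5) was analysed from 2 deposited tables, for PCB 126 and for the herbicides. According to the submitters' processing notes and the study's methods, the authors aligned reads to GRCh38 with HISAT2 and used StringTie with the Ensembl annotation to assemble transcripts and estimate their abundance, and deposited FPKM for 234960 transcripts per library, 35782 of them without a gene name. The library kit was directional. Whether counting used strand is not given in the sources used here. Some deposited columns hold values below 0 and were handled as a score, and these negatives (4 for PCB 126 and 6 for glyphosate) were replaced by 0. The deposited FPKM carry no counts, so no count model, counting interval or depth is given. No 2 libraries held identical values, and the 5 control libraries are identical in both tables. Groups came from the labels, and replicate numbers follow the order of the library numbers, in runs that hold 1 library of each group.

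FPKM were summed per gene name, and genes with a variance of FPKM above 1 in a table were tested on log2(FPKM + 1) with limma 3.58.1 in R 4.3.3, all groups of the table in 1 fit without covariates, and Benjamini-Hochberg adjustment over all genes tested (threshold 0.05). The threshold on variance and the lack of covariates were taken from the study's methods, which applied them to transcripts with Ballgown. Each dose was compared with control, Roundup also with glyphosate at 10 µg/L, and an F-test and a trend over dose steps were run per table. Genes under the filter were compared by 2-sided exact permutation tests. The code was tested on simulated data. The 10 genes, the pathway list of 40 and the marker lists were chosen with earlier results of these data known, as were the tests. The text names the 10 genes, for each its most abundant transcript and every transcript called, the list genes called or else the 2 with the smallest p, and the 2 genes of highest Pearson's r, or 1 of them. Some genes that this rule names are not reported here. The comparison by assembled locus sums named and unnamed transcripts under the same StringTie gene number. Besides the alternatives (pseudocount 0.1, other filters, scaling, library-size term, array weights, replicate block, libraries left out, transcript or locus sums, other sets of libraries in the fit), 3 combinations with the locus sum and an unfiltered fit of the PCB 126 transcripts were chosen after seeing the data. Promoter windows came from RefSeq (GRCh38) and gene positions from GENCODE. Tables and plots were made in Python 3.11.15 (pandas 2.3.3, numpy 2.4.6, matplotlib 3.10.9).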

Additional observations from a re-analysis of the deposited data

Results flagged for a closer look

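In 5 of 75 gene-by-group sets of 5 libraries, 1 library lay so far above the others that its gap to the next exceeded 0.71 of the whole range (Dixon's test at the 95% level). Chance gives about 1 in 20 for normally distributed values, which FPKM near 0 need not be. GPAM stood at 4.64 FPKM in replicate 1 of PCB 126 100 pM, against 0.688 to 1.65 in the other 4 libraries, and at 3.73 FPKM in replicate 3 of glyphosate 0.1 g/L, against 0.598 to 0.683. THRSP stood at 0.615 FPKM in replicate 4 of glyphosate 1 mg/L, against 0.109 to 0.161. ME1 was listed at 0.019 FPKM in replicate 3 of glyphosate 10 µg/L and at 0.016 FPKM in replicate 1 of glyphosate 0.1 g/L, with 0 in the other libraries of both groups. A single value above 0 in a group always meets this rule. None of these 5 libraries was among the 9 that stood apart on the first principal component.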

How the results depend on the processing

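The number of the tested genes called (1 at PCB 126 1 µM, in the PCB 126 F-test and in the PCB 126 trend, otherwise 0) depended on the processing. At 1 µM it was 2 with percentile scaling or a library-size term, 3 with quantile normalization, with array weights, without the libraries that stood apart or with any of the 3 combinations added to the locus sum, and 0 with the most abundant transcript. In the F-test it was 2 with percentile scaling and 3 with quantile normalization or array weights, 0 without the libraries that stood apart and with the most abundant transcript, and 3, 3 and 2 with the locus sum and percentile scaling, quantile normalization or those libraries left out. In the trend it was 0 with the most abundant transcript, 2 with the locus sum, the replicate block or all 40 libraries in one fit, and 3 with each of the other alternatives that moved it. At 10 nM it was 1 with array weights (MLXIPL), and with the locus sum 1 under percentile scaling (GPAM) and 2 under quantile normalization (GPAM and MLXIPL). With array weights it was 2 for Roundup against control (FASN and ACLY), 3 for Roundup against glyphosate (FASN, ACLY and DGAT2) and 3 in the glyphosate F-test (FASN, ACLY and ACACB). In the glyphosate table the array weights did not reach their convergence tolerance and called 3470, 4448 and 5527 of all genes there, where the fit as reported called 0. The other counts for 100 pM and the glyphosate doses were 0 under every alternative.

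Leaving out 1 library at a time gave 1 call at 1 µM and in the F-test throughout and 1 to 2 in the trend, where DGAT2 joined without control replicate 5 or without PCB 126 10 nM replicate 4 (the lowest adjusted p was 0.029). GPAM then rose by 1.72 to 1.92 at 1 µM (adjusted p = 0.0011 to 0.0033). Over the other 16 alternatives GPAM at 1 µM lay between 1.05 and 2.49 (adjusted p = 3.3e-05 to 0.20), DGAT2 between -0.82 and -0.49 (0.0069 to 0.32) and MLXIPL between 0.48 and 1.02 (0.00029 to 0.60), with no change of direction. The genes called at 1 µM (182) numbered 129 to 2053 over the alternatives other than leaving out 1 library, those in the trend (361) 236 to 2292, in the F-test (136) 88 to 1432 and at 10 nM (20) 14 to 400; the cause was not tested beyond what each alternative changes.

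The fits as reported did not pair the libraries by replicate number, and the values here do not settle whether they should. Deviations correlated above 0.1 in 7 of 30 same-numbered pairs in the PCB 126 table and 19 of 50 in the glyphosate table. The median correlation in these tables was 0.063 and 0.069 for same-numbered pairs, against -0.018 and -0.019 for other pairs. Of the libraries, 9 of 20 and 18 of 25 correlated best with their own number, so libraries of the same number may be linked. Each run of library numbers holds 1 library of every group, and no label says whether runs were handled as blocks. Replicate 5 of control, Roundup, the lowest glyphosate dose and every PCB 126 concentration but the lowest stood apart on the first principal component. The other libraries that stood apart carried other numbers. The replicate block added DGAT2 to the calls of the PCB 126 trend (2 calls, adjusted p = 0.021) and changed no other count of these genes, while the genes called at 1 µM went from 182 to 357. ME1 and THRSP lay too low for the filter, and without read counts a level of 0 in these tables sets no limit.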
